A study of Homo sapiens with 12 samples.

Results

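The genes described here are 46 genes of terminal differentiation and cornification of the epidermis, out of 58735 genes in an RNA sequencing table of HaCaT cells, an immortalised keratinocyte line of human origin. They were taken by gene symbol from a fixed list, and each symbol had 1 identifier in the table. By role, 17 encode envelope and structural proteins, 9 peptidases, 6 cross-linking or citrullinating enzymes, 4 secreted or cell-cell proteins, 2 peptidase inhibitors and 8 other proteins of differentiating keratinocytes. The values are FPKM, fragments scaled by gene length and by library size, as the authors deposited them.

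The study knocked down PHGDH, the first enzyme of serine synthesis from a glycolytic intermediate, and asked how gene expression differed with and without a stimulus called Mix. There were 4 groups of 3 libraries: PHGDH siRNA with Mix for 24 h (PHGDH-siRNA+Mix), PHGDH siRNA alone (PHGDH-siRNA), control siRNA with Mix for 24 h (Control-siRNA+Mix) and control siRNA alone (Control-siRNA). All 12 libraries came from the same line grown in DMEM with fetal bovine serum, and both siRNA arms were transfected. The sources used here do not give what Mix contains, the sequences of the siRNAs, or whether replicates were grown as separate cultures. The p-values therefore measure the spread between libraries alone, which may be technical.

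In the epidermis, keratinocytes leave the basal layer, switch keratins and build a cornified envelope. Involucrin, plakins, sciellin, loricrin and late cornified envelope proteins are joined by transglutaminases beneath the cell membrane, while filaggrin packs keratin filaments and is citrullinated by PADI enzymes. Kallikrein-related peptidases (KLK), held back by SPINK inhibitors, cut the junctions between the cornified cells so that these can be shed. HaCaT cells grown flat on plastic keep part of this programme and are commonly used to follow it.

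The reads recovered from the FPKM values summed to between 16403845 and 20901128 per library, and 21348 to 22510 genes were above 0. PHGDH measured 19.1, 13.3 and 11.5 FPKM in PHGDH-siRNA+Mix, 23.7, 20.1 and 16.9 FPKM in PHGDH-siRNA, 31.9, 31.2 and 26.6 FPKM in Control-siRNA+Mix, and 36.5, 56.2 and 45.8 FPKM in Control-siRNA. The siRNA groups did not overlap with Mix or without it, and averaged over both Mix conditions the log2 fold change was -1.08 (SE 0.146, limma adjusted p = 0.0197). Neither single comparison was called, at -1.01 with Mix (SE 0.207, limma adjusted p = 0.200) and -1.14 without (SE 0.207, limma adjusted p = 0.128). All 12 keratinocyte markers checked were expressed. Their summed level was 5512 to 9237 FPKM in PHGDH-siRNA+Mix, 2713 to 7488 FPKM in PHGDH-siRNA, 5230 to 5635 FPKM in Control-siRNA+Mix and 2186 to 3151 FPKM in Control-siRNA. The summed markers of other cell types (fibroblast, melanocyte, leukocyte, endothelial) reached at most 2.11, 0.814, 3.17 and 0.934 FPKM in any library, and PTPRC, TYR and KDR were at 0 in every library.

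Replicate 2 of both PHGDH-siRNA groups stood apart for many of these genes, and results that rest on these libraries are given with and without them. A gene was counted as apart when replicate 2 differed from the mean of replicates 1 and 3 by more than 1 on the log2(FPKM + 1) scale, the same way with and without Mix. In the PHGDH-siRNA groups 8 of the 29 expressed cornification genes were apart (27.6%), against 4.21% of the 14577 genes tested. In the control-siRNA groups 0 of 29 were, against 0.0549% of all genes tested.

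The genes that were high in these libraries were the retinoid carrier CRABP2, the water and glycerol channel AQP3, the galectin-7 gene LGALS7B, the envelope transglutaminase TGM1 and the inhibitor SPINK5. CRABP2 was at 1.82, 35.7 and 2.75 FPKM in PHGDH-siRNA+Mix, 1.92, 43.0 and 1.90 FPKM in PHGDH-siRNA, 3.86, 5.14 and 4.15 FPKM in Control-siRNA+Mix, and 2.82, 4.53 and 4.28 FPKM in Control-siRNA. AQP3 was at 2.56, 49.3 and 2.55 FPKM in PHGDH-siRNA+Mix, 6.63, 62.0 and 3.62 FPKM in PHGDH-siRNA, 5.93, 6.51 and 6.20 FPKM in Control-siRNA+Mix, and 9.98, 12.4 and 12.1 FPKM in Control-siRNA. For both genes replicate 2 of the PHGDH-siRNA groups lay above every control-siRNA library and replicates 1 and 3 lay below every control-siRNA library of the same Mix condition, so the mean of the 3 hides opposite positions. KRT1, a suprabasal keratin, and CASP14, a caspase of cornifying cells, reached 4.11 and 2.65 FPKM in replicate 2 of PHGDH-siRNA, and KRT1 stayed at or below 0.109 FPKM in the other 11 libraries.

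The genes that were low in the same libraries were the peptidases KLK5 and KLK6 and the suprabasal keratin KRT10. KLK5, which cuts corneodesmosome proteins, was at 49.2, 10.2 and 43.9 FPKM in PHGDH-siRNA+Mix and 116, 21.1 and 114 FPKM in PHGDH-siRNA. KRT10 was at 23.3, 9.38 and 18.3 FPKM in PHGDH-siRNA+Mix and 29.4, 8.63 and 25.7 FPKM in PHGDH-siRNA, against 16.1 to 29.4 FPKM over the 6 control-siRNA libraries. The sum of the basal keratinocyte genes was high there too, at 4734, 7273 and 4030 FPKM in PHGDH-siRNA+Mix and 1896, 5755 and 1752 FPKM in PHGDH-siRNA. It was 4068 to 4130 FPKM in Control-siRNA+Mix and 1710 to 2219 FPKM in Control-siRNA. A sum follows its most abundant genes, such as KRT14, with a mean of 1384 FPKM in PHGDH-siRNA against 715 FPKM in Control-siRNA. It does not show that the basal genes were high as a set, and KRT15 averaged 43.4 FPKM against 62.8 FPKM in the same groups. The summed leukocyte markers were low in the same libraries, at 0.479 FPKM against 1.76 and 2.14 FPKM in PHGDH-siRNA+Mix and 0.259 FPKM against 2.91 and 1.93 FPKM in PHGDH-siRNA. Their part in the results was not tested.

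**Figure D1:**
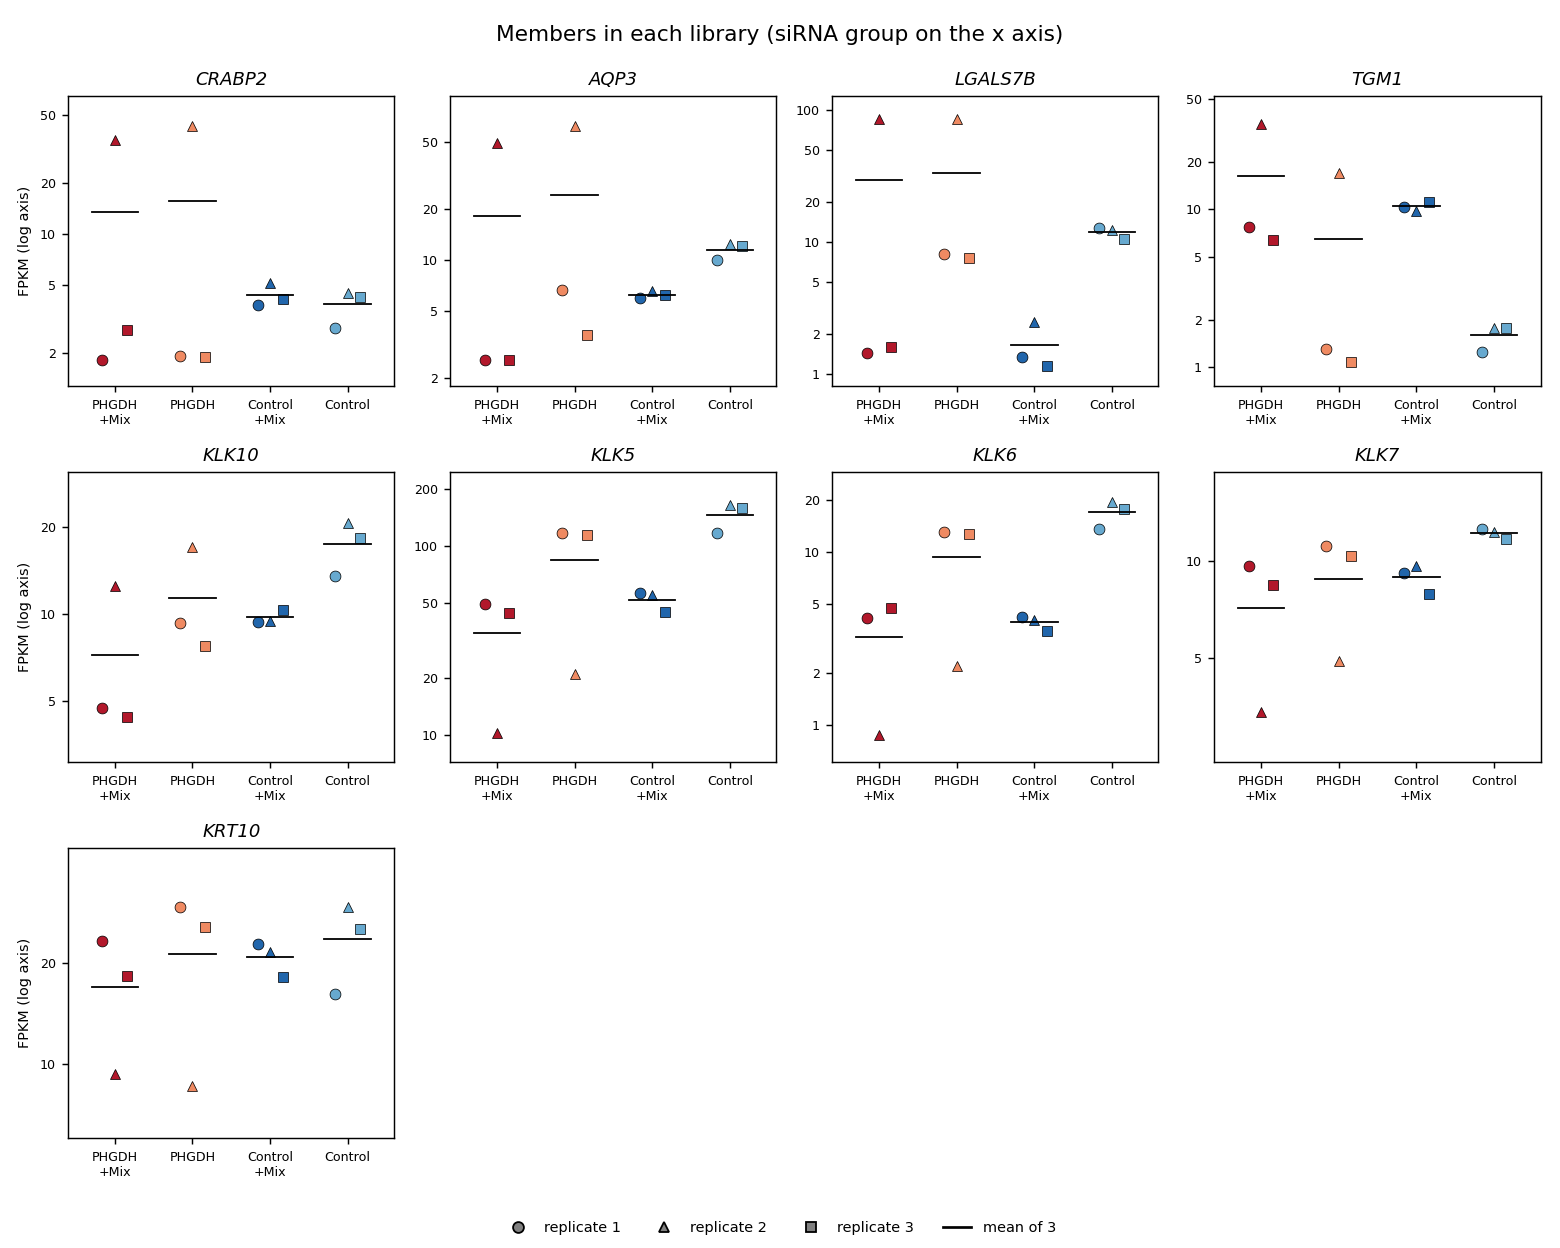
Level of 9 cornification genes in each library (FPKM, log axis), with the 4 groups on the x axis, 1 symbol per replicate and a line at the mean of 3. Replicate 2 of both PHGDH-siRNA groups (triangles) is the highest of its group for CRABP2, AQP3, LGALS7B, TGM1 and KLK10 and the lowest for KLK5, KLK6, KLK7 and KRT10, while the triangles of the control-siRNA groups lie near the other replicates.

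In these cells 29 of the 46 genes entered the test, with a group mean of at least 0.5 FPKM in 1 group or more: 10 envelope and structural genes, 8 peptidases, 3 cross-linking or citrullinating enzymes, 2 secreted proteins, 1 inhibitor and 5 others. Their median level was 2.49 FPKM, against 3.97 FPKM over all genes tested. KLK5 had the highest mean level, 79.0 FPKM over all 12 libraries, above 96.2% of the genes tested, followed by EMP1 at 41.5, the plakin PPL at 23.2 and KRT10 at 20.7 FPKM. The markers of late cornification lay far lower, with FLG at a mean of 0.392 FPKM. LCE3D, LCE3E and SBSN passed the filter through the Mix groups alone, SCEL and FLG through the groups without Mix alone, and KRT1 and CASP14 through replicate 2 of PHGDH-siRNA, so their presence among the genes tested already reflects a difference between groups.

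The remaining 17 genes stayed under the filter, and no library exceeded 1.09 FPKM for any of them, the value of the calmodulin-like CALML5 in replicate 2 of PHGDH-siRNA. They were the envelope and structural genes HRNR, CRNN, LCE3A, KRT2, FLG2, RPTN and LOR, the secreted or cell-cell genes KRTDAP and CDSN, the enzymes TGM3, TGM5 and PADI2, the peptidase ASPRV1, the inhibitor SPINK6, and SULT2B1, CALML3 and CALML5. RPTN, SPINK6 and LOR, which encodes loricrin, a main envelope protein of the upper epidermis, were at 0 in all 12 libraries. LCE3A was at 1.00 FPKM, or 5 reads, in replicate 2 of PHGDH-siRNA+Mix and at 0 in the other 11. Genes on the opposite strand overlap 93.8% of the exon bases of CDSN and 29.7% of those of CALML3. The sources used here do not give the strand setting of the counting, so the low levels of CDSN and CALML3 are uncertain.

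Many of the genes sit in clusters (hg38). The epidermal differentiation complex on chromosome 1, from 152153595 to 153262122, holds 10 of them (RPTN, HRNR, FLG, FLG2, CRNN, LCE3E, LCE3D, LCE3A, IVL and LOR), and 4 of these entered the test. The 7 KLK genes span 50943303 to 51065114 on chromosome 19, and all 7 entered the test. The 3 PADI genes lie on chromosome 1 from 17066761 to 17284233, and PADI1 and PADI3 entered the test.

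With Mix, most of the expressed cornification genes that passed the test were lower: the envelope precursors involucrin (IVL) and sciellin (SCEL), the citrullinating enzyme PADI3, the peptidases KLK8 and KLK13 and the membrane protein EMP1 fell in both siRNA arms. Their mean levels with Mix were between 1.39-fold and 4.01-fold lower on the FPKM + 1 scale. The late cornified envelope gene LCE3D rose in both arms. In PHGDH-siRNA cells 9 of 29 were called, 3 higher and 6 lower, against 8.86% of all genes tested (5.22% higher and 3.64% lower). In control-siRNA cells 9 of 29 were also called, 1 higher and 8 lower, against 9.54% of all genes tested (5.62% higher and 3.92% lower). Of the genes called, LCE3D, LCE3E, SBSN, SCEL and FLG had passed the filter only through the groups where they were high, so these counts are a description of the 29 and give no support to a difference between them and other genes. A gene was called at a limma adjusted p below 0.05 over the 14577 genes, with all 12 libraries in 1 model. In bulk RNA, fewer differentiating cells and less RNA of these genes per cell cannot be told apart.

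The 3 libraries with Mix did not overlap with the 3 without for 13 of the 29 genes in PHGDH-siRNA cells, 3 higher and 10 lower, against 21.5% of all genes tested (11.3% higher and 10.3% lower). In control-siRNA cells they did not overlap for 23 of the 29, 4 higher and 19 lower, against 37.8% of all genes tested (19.1% higher and 18.7% lower). The median log2 fold change with Mix over the 29 genes was -0.47 in PHGDH-siRNA cells and -0.52 in control-siRNA cells, against 0.00 over all genes tested in each. It depended on the scale, at -0.72 and -0.82 with a pseudocount of 0.1, -0.74 and -0.82 with TPM scaling, and -0.87 and -0.96 with voom on recovered reads, where the medians of all genes were -0.10 and -0.06. The arms share no library, and 28 of the 29 genes had the same sign in both (96.6%, against 80.6% of all genes tested). The overlap counts, medians and sign share include LCE3D, LCE3E, SBSN, SCEL and FLG, whose direction with Mix was tied to passing the filter. They also include KRT1 and CASP14, which passed it through the PHGDH-siRNA library that stood apart. These values therefore describe the 29 genes and give no support to a difference between them and other genes. The 7 genes called in both arms were EMP1, IVL, KLK13, KLK8, LCE3D, PADI3 and SCEL.

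**Figure D2:**
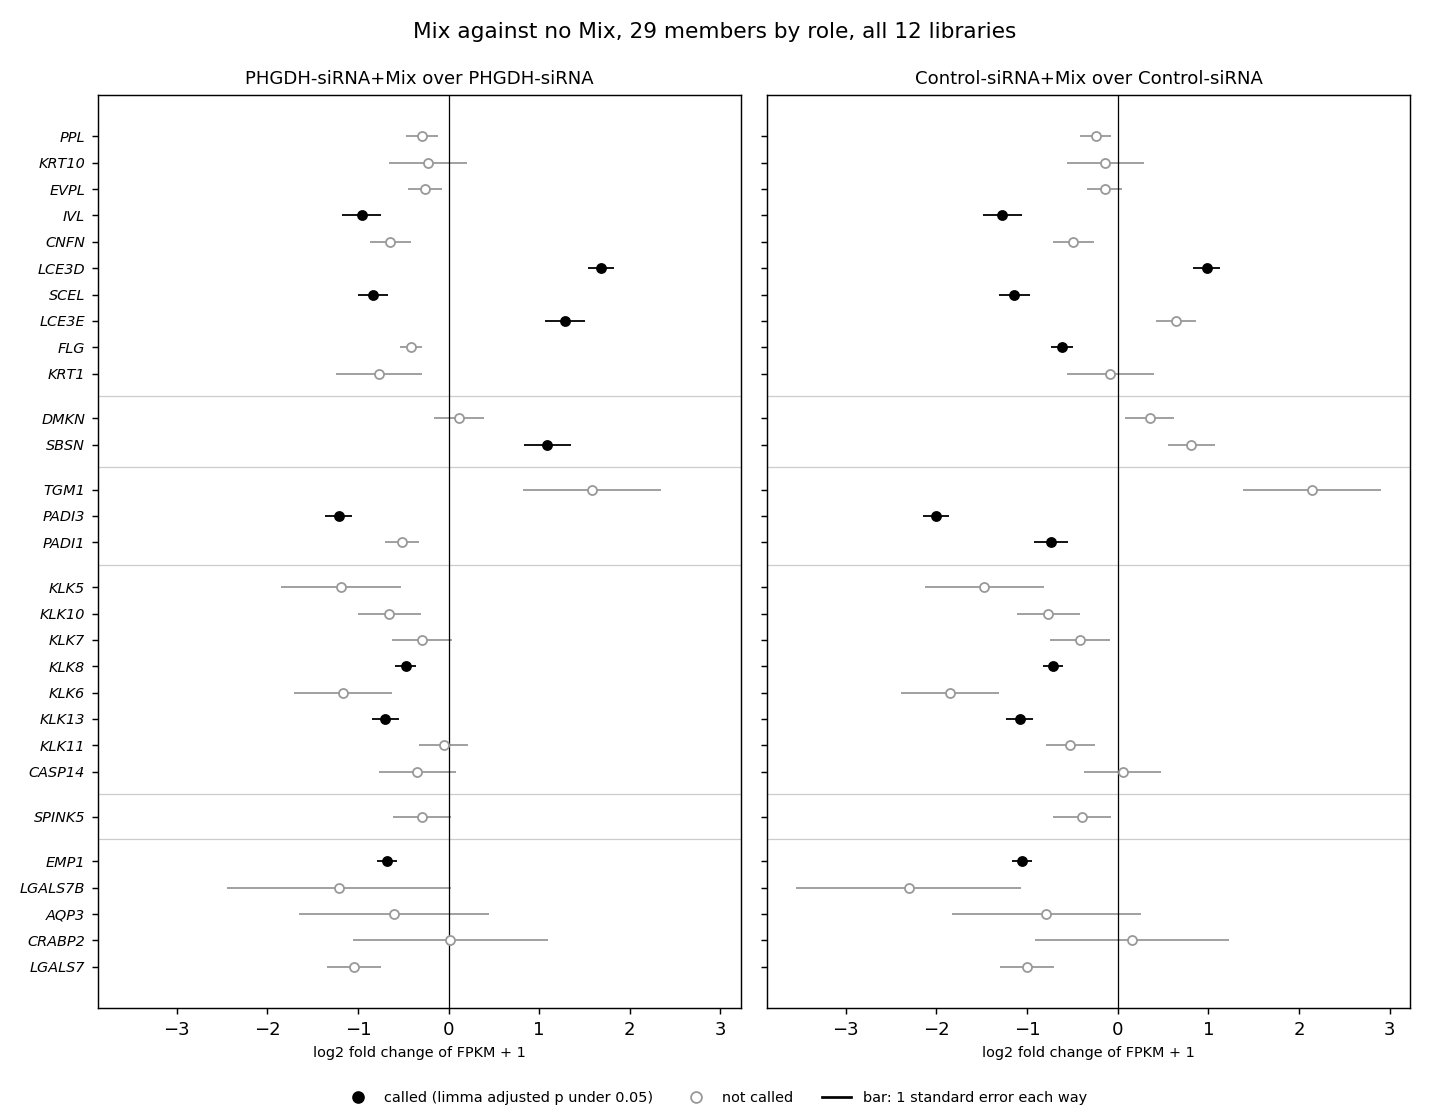
Log2 fold change of FPKM + 1 with Mix for the 29 expressed genes (PHGDH-siRNA cells at left, control-siRNA cells at right), in 6 blocks from top to bottom: envelope and structural, secreted, cross-linking and citrullinating, peptidases, inhibitor, others. Filled points passed the limma test and bars are 1 standard error each way: 3 filled points lie right of 0 and 6 left of it at left, 1 and 8 at right.

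The spread of the 12 libraries is shared by all comparisons, and the PHGDH-siRNA replicate 2 libraries widen it for the genes they set apart. These libraries were left out because they stood apart in these genes, so smaller standard errors without them follow in part from that choice. The p-values of calls without them carry the same limit. With replicate 2 of both PHGDH-siRNA groups (the replicate 2 pair) left out, the standard error of a Mix comparison in control-siRNA cells was 0.116 in place of 0.763 for TGM1, 0.147 in place of 0.658 for KLK5 and 0.168 in place of 1.24 for LGALS7B. Without them 16 of the 29 genes were called in PHGDH-siRNA cells, 4 higher and 12 lower, against 15.1% of all genes tested (8.23% higher and 6.85% lower). In control-siRNA cells 21 were called, 4 higher and 17 lower, against 21.0% of all genes tested (11.2% higher and 9.86% lower). The same 21 genes were called in control-siRNA cells by a model of the control-siRNA libraries alone, against 18.1% of all genes tested (9.84% higher and 8.29% lower). Both fits use the same control-siRNA libraries and fold changes and differ in the estimate of spread, so this is no separate evidence. In PHGDH-siRNA cells a model of the 6 libraries of that arm alone called 3 genes, PADI3 and SCEL lower and LCE3D higher, against 1.63% of all genes tested (1.28% higher and 0.357% lower). Each of these counts includes genes from among LCE3D, LCE3E, SBSN, SCEL and FLG, whose direction was tied to passing the filter. The counts therefore describe the 29 genes and give no support to a difference between them and other genes.

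In the PHGDH-siRNA arm libraries of the same number deviated together, with correlations of 0.690, 0.775 and 0.459 for replicates 1, 2 and 3, and in no other pair of groups did all 3 exceed 0.1. A model with the replicate number as a block in this arm alone, chosen after seeing the data, called 20 of the 29 genes with Mix in PHGDH-siRNA cells, 4 higher and 16 lower, against 22.5% of all genes tested (12.1% higher and 10.4% lower). They include the 9 called without the block. The 11 others were TGM1, which rose, and FLG, LGALS7, LGALS7B, PADI1, KLK5, KLK6, KLK7, KLK10, SPINK5 and AQP3, which fell. AQP3 fell by 0.60 with the block (SE 0.147, adjusted p = 0.0177), against an SE of 1.05 and an adjusted p of 0.798 without it, and it was lower with Mix in each of the 3 pairs. In control-siRNA cells, which carry no block but share the estimate of spread, the model called 21 genes, 4 higher and 17 lower, against 22.6% (12.1% higher and 10.5% lower), and these were the 21 called without the replicate 2 pair. Here too the libraries and fold changes were the same, so the match is no separate evidence. The counts of both arms include LCE3D, LCE3E, SBSN, SCEL and FLG, so the limit set by the filter holds for them as well.

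Among the envelope and structural genes, IVL, an early envelope precursor, was at 1.19, 0.753 and 1.61 FPKM in PHGDH-siRNA+Mix, against 3.34, 2.74 and 3.54 FPKM in PHGDH-siRNA. In control-siRNA cells it was at 1.44, 1.09 and 0.927 FPKM with Mix, against 2.76, 4.57 and 5.60 FPKM without. The groups did not overlap in either arm, and IVL fell by 0.96 on the log2 scale in PHGDH-siRNA cells (SE 0.214, adjusted p = 0.0187) and by 1.27 in control-siRNA cells (SE 0.214, adjusted p = 0.00352). The call in PHGDH-siRNA cells was lost in 4 of 21 alternatives, with adjusted p up to 0.0771, among them leaving out replicate 1 (0.0638) or replicate 3 (0.0766) of PHGDH-siRNA.

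SCEL, a precursor that is cross-linked into the envelope, was at 0.0734, 0.0643 and 0.206 FPKM in PHGDH-siRNA+Mix, against 0.905, 0.917 and 1.15 FPKM in PHGDH-siRNA. With control siRNA it was at 0.136, 0.104 and 0.0999 FPKM with Mix, against 2.10, 0.878 and 1.54 FPKM without. Every library with Mix lay below every library without it, and the ratio of the group means was 8.65-fold lower in PHGDH-siRNA cells and 13.3-fold lower in control-siRNA cells. The log2 fold change of FPKM + 1, which understates changes below about 1 FPKM, was -0.84 in PHGDH-siRNA cells (SE 0.167, adjusted p = 0.0108) and -1.14 in control-siRNA cells (SE 0.167, adjusted p = 0.00141). Without PHGDH-siRNA replicate 3 the first of these missed the threshold (adjusted p = 0.05002). FLG, which encodes the filament-packing filaggrin, was at 0.129, 0.216 and 0.140 FPKM in PHGDH-siRNA+Mix, against 0.412, 0.556 and 0.673 FPKM in PHGDH-siRNA, and at 0.108, 0.115 and 0.161 FPKM in Control-siRNA+Mix, against 0.883, 0.610 and 0.706 FPKM in Control-siRNA. The groups did not overlap in either arm, and FLG passed the test in control-siRNA cells (log2 fold change -0.62, SE 0.121, adjusted p = 0.00869) and not in PHGDH-siRNA cells (-0.41, SE 0.121, adjusted p = 0.0606), where it was called with the block (SE 0.113, adjusted p = 0.0288). Without the replicate 2 pair FLG was not called in PHGDH-siRNA cells (-0.44, SE 0.133, adjusted p = 0.0583).

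LCE3D, a late cornified envelope gene of the group known from injured and psoriatic skin, was at 2.01, 2.82 and 2.12 FPKM in PHGDH-siRNA+Mix, against 0, 0 and 0.0875 FPKM in PHGDH-siRNA. In control-siRNA cells it was at 1.40, 0.799 and 1.29 FPKM with Mix, against 0.0904, 0.183 and 0 FPKM without. These values rest on 24, 32 and 24 reads against 0, 0 and 1 in PHGDH-siRNA cells and on 15, 9 and 15 reads against 1, 2 and 0 in control-siRNA cells. LCE3D rose by 1.68 on the log2 scale in PHGDH-siRNA cells (SE 0.146, adjusted p = 5.41e-05) and by 0.98 in control-siRNA cells (SE 0.146, adjusted p = 0.00163).

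LCE3E was listed at 0 in all 6 libraries without Mix, and at 2.61, 0.796 and 1.24 FPKM in PHGDH-siRNA+Mix and 0.845, 0.445 and 0.430 FPKM in Control-siRNA+Mix. It passed the test in PHGDH-siRNA cells (log2 fold change 1.29, SE 0.219, adjusted p = 0.00437) and not in control-siRNA cells (0.64, SE 0.219, adjusted p = 0.1). Both values depend on the 1 FPKM added before the logarithm. The LCE3E call in PHGDH-siRNA cells was lost in 1 of 21 alternatives (adjusted p = 0.0844). The longest LCE3D and LCE3E transcripts were identical at 92.7% of 613 aligned positions, so reads of one can be counted for the other.

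The other structural genes gave smaller differences or none that passed. The plakin PPL, which ties keratin filaments to the envelope, was at 14.9, 25.4 and 16.6 FPKM in PHGDH-siRNA+Mix, 22.2, 25.2 and 21.3 FPKM in PHGDH-siRNA, 22.4 to 24.3 FPKM in Control-siRNA+Mix and 24.6 to 29.7 FPKM in Control-siRNA. PPL, its partner EVPL, the envelope protein CNFN and the keratins KRT10 and KRT1 were not called with Mix in either arm. Leaving that pair out, PPL fell with Mix in PHGDH-siRNA cells (log2 fold change -0.45, SE 0.113, adjusted p = 0.0299).

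Of the secreted genes SBSN, which encodes suprabasin, was at 2.33, 0.463 and 1.72 FPKM in PHGDH-siRNA+Mix, against 0.213, 0.131 and 0 FPKM in PHGDH-siRNA. With control siRNA it was at 0.520, 1.15 and 0.793 FPKM with Mix, against 0, 0.0563 and 0.0267 FPKM without. The groups did not overlap in either arm, and SBSN passed the test in PHGDH-siRNA cells (log2 fold change 1.09, SE 0.258, adjusted p = 0.0246) and not in control-siRNA cells (0.81, SE 0.258, adjusted p = 0.0794). The call was lost in 6 of 21 alternatives, with adjusted p up to 0.173, among them leaving out PHGDH-siRNA replicate 1 (0.0570) or 3 (0.0962) or PHGDH-siRNA+Mix replicate 1 (0.0772) or 3 (0.0958). Without the replicate 2 pair it was called in both arms. Its neighbour DMKN, which encodes dermokine, overlapped between the groups in both arms, at 7.85 to 14.4 FPKM in PHGDH-siRNA+Mix against 7.30 to 13.3 FPKM in PHGDH-siRNA, and at 12.3 to 13.5 FPKM in Control-siRNA+Mix against 6.82 to 13.0 FPKM in Control-siRNA.

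**Figure D3:**
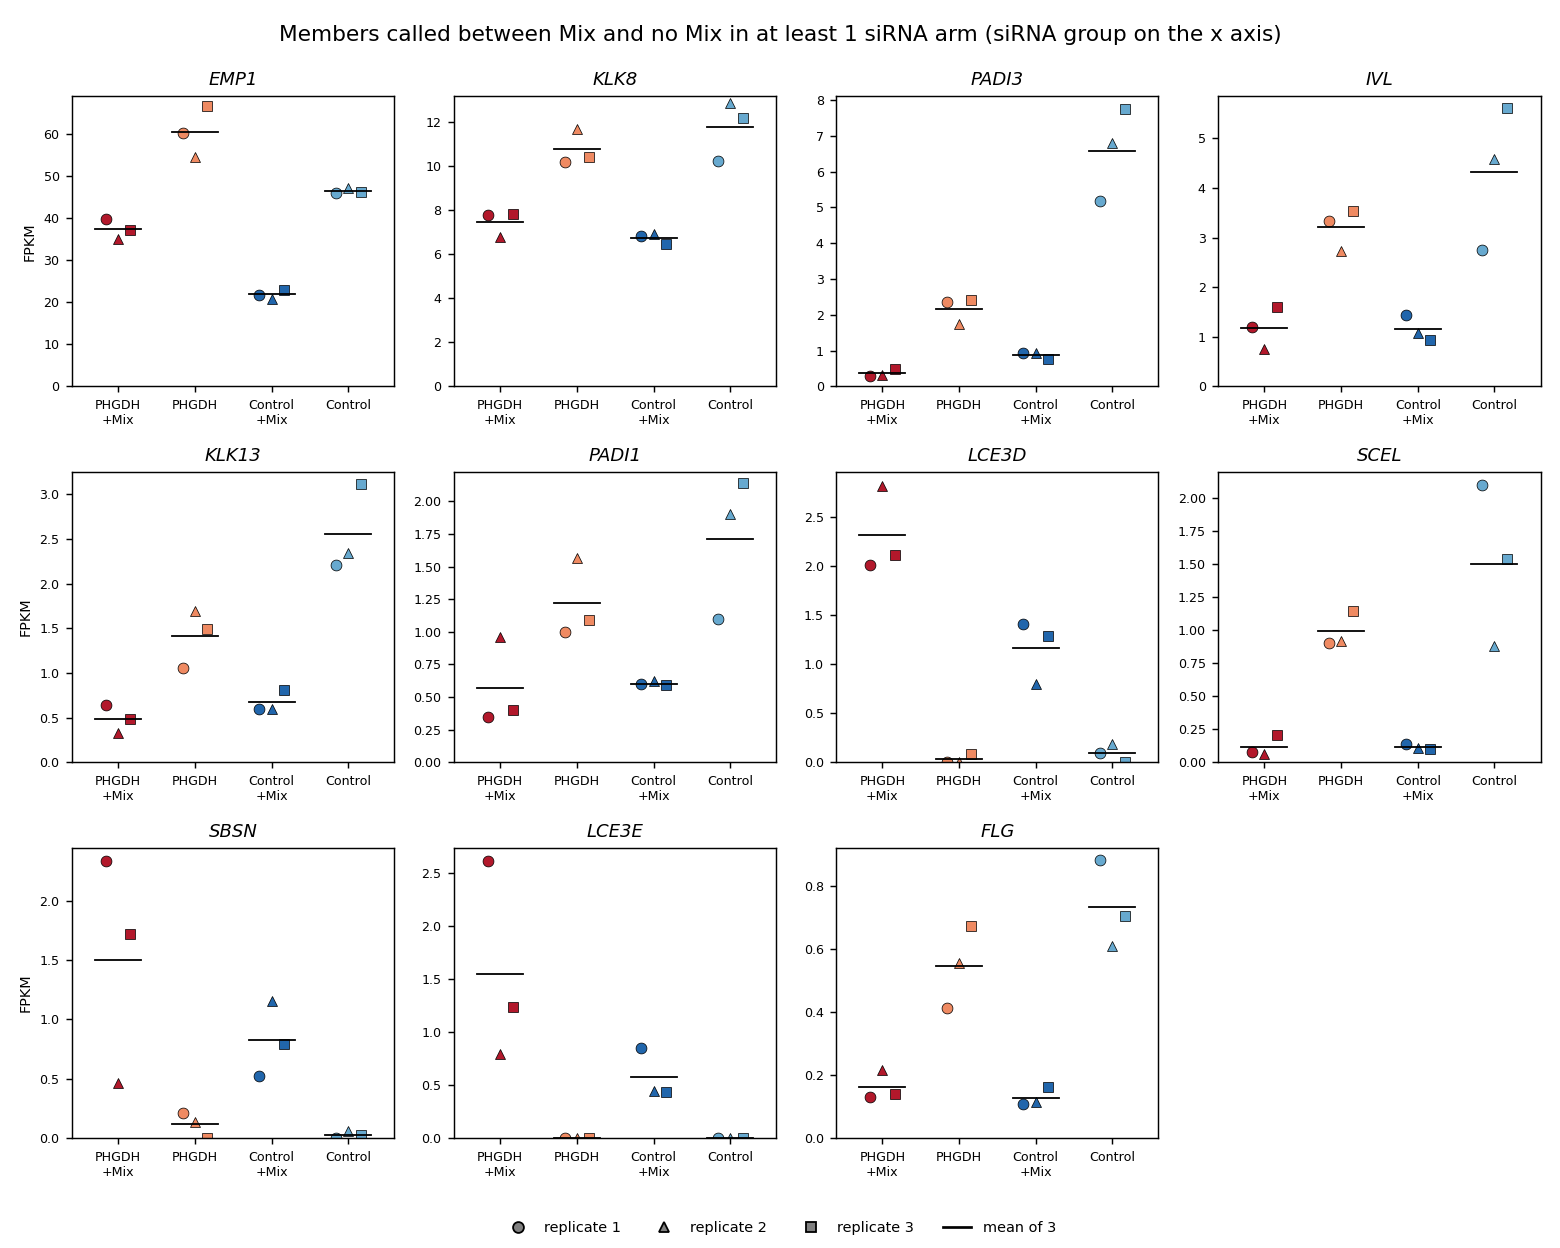
Level of the 11 genes called with Mix in at least 1 siRNA arm (FPKM, linear axes from 0), with the 4 groups on the x axis, 1 symbol per replicate and a line at the mean of 3. LCE3D, SBSN and LCE3E are high in the groups with Mix, and the other 8 are low there, with EMP1 the most abundant of the 11 at 35.1 to 39.8 FPKM in PHGDH-siRNA+Mix.

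The promoters of 6 of the genes called with Mix are shown so that those of 3 genes that fell (IVL, EMP1 and SCEL) can be read beside those of the 3 that rose (SBSN, LCE3D and LCE3E). They are the 250 bases before the RefSeq start on GRCh38.p14, given 5' to 3' on the strand of the gene, with capitals marking matches to TGANTCA, the recognition letters of AP-1 factors, and to TATAAA. The windows are chr1:152908296-152908545 for IVL, chr12:13196476-13196725 for EMP1, chr13:77535456-77535705 for SCEL, all on the plus strand, and chr19:35528312-35528561 for SBSN, chr1:152580517-152580766 for LCE3D and chr1:152566781-152567030 for LCE3E on the minus strand.
IVL: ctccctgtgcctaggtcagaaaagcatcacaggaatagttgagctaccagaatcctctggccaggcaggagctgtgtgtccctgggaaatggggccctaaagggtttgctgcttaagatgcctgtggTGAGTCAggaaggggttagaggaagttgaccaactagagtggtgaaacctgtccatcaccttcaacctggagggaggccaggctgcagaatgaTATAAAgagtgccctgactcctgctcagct
EMP1: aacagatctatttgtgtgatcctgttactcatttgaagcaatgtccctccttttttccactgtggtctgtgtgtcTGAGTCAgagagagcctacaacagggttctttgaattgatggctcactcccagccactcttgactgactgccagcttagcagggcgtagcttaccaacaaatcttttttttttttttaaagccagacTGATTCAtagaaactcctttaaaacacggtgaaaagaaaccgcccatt
SCEL: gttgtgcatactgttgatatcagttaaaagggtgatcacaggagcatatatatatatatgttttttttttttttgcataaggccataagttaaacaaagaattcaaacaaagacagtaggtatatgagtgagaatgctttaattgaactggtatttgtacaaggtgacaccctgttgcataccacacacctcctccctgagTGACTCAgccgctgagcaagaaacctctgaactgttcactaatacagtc
SBSN: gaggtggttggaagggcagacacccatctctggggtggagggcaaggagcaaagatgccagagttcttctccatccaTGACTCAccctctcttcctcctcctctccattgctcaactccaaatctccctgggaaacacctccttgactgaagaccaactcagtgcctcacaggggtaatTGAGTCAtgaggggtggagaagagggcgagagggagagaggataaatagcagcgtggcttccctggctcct
LCE3D: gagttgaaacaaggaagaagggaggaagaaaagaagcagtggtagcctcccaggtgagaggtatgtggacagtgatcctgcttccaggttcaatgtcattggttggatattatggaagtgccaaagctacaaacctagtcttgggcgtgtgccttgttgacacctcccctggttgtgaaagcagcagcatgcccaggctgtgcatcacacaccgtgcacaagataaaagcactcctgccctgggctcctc
LCE3E: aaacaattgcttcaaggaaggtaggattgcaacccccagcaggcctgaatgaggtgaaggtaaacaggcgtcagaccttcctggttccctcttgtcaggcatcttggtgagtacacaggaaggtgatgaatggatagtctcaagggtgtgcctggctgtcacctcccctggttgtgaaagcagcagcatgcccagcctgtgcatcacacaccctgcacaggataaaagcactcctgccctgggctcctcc

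IVL held 1 TGANTCA match beginning 123 bases before its start and TATAAA at 30 bases. EMP1 held matches at 175 and 48 bases, SCEL at 49 bases and SBSN at 173 and 71 bases, while no match was found in this window of LCE3D or LCE3E. TTCNNNGAA, the recognition letters of STAT factors, was found in EMP1 at 149 and 45 bases and in LCE3E at 240 bases. The windows of IVL, SCEL, SBSN and LCE3D held none. In EMP1 the TTCNNNGAA match at 45 bases shares letters with the TGANTCA match at 48 bases. TGANTCA was thus present both in genes that were lower with Mix and in SBSN, which was higher. Of the 4 genes with a promoter that were called lower in both arms, 3 held TGANTCA and are shown, and KLK13 held none. Of those called lower in control-siRNA cells alone, FLG held 1 match and PADI1 none. The LCE3D and LCE3E windows were identical at 69.5% of 262 aligned positions.

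Of the 46 genes 39 were matched to the promoter table, and EVPL, KLK8, KRT1, LOR, PADI3, PPL and TGM1 were not. Searched on both strands, TGANTCA was in 12 of 39 windows (30.8%), against 6.57% of 35116 promoters of the same length. TATAAA was in 10 of 39 (25.6%), against 10.7% of all promoters, TTCNNNGAA in 3 of 39 (7.69%), against 6.57%, and CACCC, the letters of KLF factors, in 30 of 39 (76.9%), against 54.7%. A match describes the letters and is no evidence that a factor was bound there.

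PADI3, which citrullinates filaggrin and other structural proteins, had the lowest adjusted p of the 29 genes with Mix in control-siRNA cells. It was at 0.290, 0.322 and 0.475 FPKM in PHGDH-siRNA+Mix, against 2.35, 1.75 and 2.40 FPKM in PHGDH-siRNA. In control-siRNA cells it was at 0.936, 0.921 and 0.758 FPKM with Mix, against 5.18, 6.81 and 7.73 FPKM without. The 4 groups did not overlap with each other. PADI3 fell with Mix by 1.21 on the log2 scale in PHGDH-siRNA cells (SE 0.147, adjusted p = 0.000466) and by 2.00 in control-siRNA cells (SE 0.147, adjusted p = 1.11e-05), and both calls held in all 21 alternatives run.

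PADI1, a second epidermal citrullinating enzyme, was at 0.346, 0.959 and 0.397 FPKM in PHGDH-siRNA+Mix, against 0.998, 1.56 and 1.09 FPKM in PHGDH-siRNA, and at 0.597, 0.621 and 0.589 FPKM in Control-siRNA+Mix, against 1.10, 1.91 and 2.14 FPKM in Control-siRNA. The groups did not overlap in either arm. PADI1 passed the test in control-siRNA cells (log2 fold change -0.74, SE 0.187, adjusted p = 0.0312) and not in PHGDH-siRNA cells (-0.51, SE 0.187, adjusted p = 0.128), where it was called with the block (SE 0.143, adjusted p = 0.0305). Without the replicate 2 pair PADI1 was not called in PHGDH-siRNA cells (-0.58, SE 0.173, adjusted p = 0.0567). The control-siRNA call was lost with an adjusted p of 0.0809 without the filter, and of 0.106 without Control-siRNA replicate 2, 0.131 without replicate 3, and 0.0977, 0.0939 and 0.105 without Control-siRNA+Mix replicates 1, 2 and 3.

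TGM1, the transglutaminase that joins envelope proteins, was at 7.77, 34.8 and 6.43 FPKM in PHGDH-siRNA+Mix, against 1.31, 17.1 and 1.08 FPKM in PHGDH-siRNA. With control siRNA it was at 10.3, 9.80 and 11.2 FPKM with Mix, against 1.25, 1.78 and 1.77 FPKM without. The control-siRNA groups lay far apart, and the PHGDH-siRNA groups overlapped through replicate 2 of PHGDH-siRNA. With all 12 libraries TGM1 was not called in PHGDH-siRNA cells (log2 fold change 1.58, SE 0.763, adjusted p = 0.259) or in control-siRNA cells (2.14, SE 0.763, adjusted p = 0.116). Leaving out the replicate 2 pair, TGM1 rose with Mix by 1.88 in PHGDH-siRNA cells (SE 0.142, adjusted p = 7.20e-05) and by 2.14 in control-siRNA cells (SE 0.116, adjusted p = 4.88e-06). With all 12 libraries and the block, TGM1 rose by 1.58 in PHGDH-siRNA cells (SE 0.172, adjusted p = 0.000320), and it was higher with Mix in each of the 3 pairs.

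Among the 8 peptidases tested, 2 passed the test with Mix without a block, both lower in both arms, and 6 did not pass in either arm. KLK13 was at 0.641, 0.323 and 0.485 FPKM in PHGDH-siRNA+Mix, against 1.05, 1.69 and 1.50 FPKM in PHGDH-siRNA, and at 0.601, 0.596 and 0.811 FPKM in Control-siRNA+Mix, against 2.21, 2.34 and 3.11 FPKM in Control-siRNA. The groups did not overlap, with log2 fold changes of -0.70 in PHGDH-siRNA cells (SE 0.147, adjusted p = 0.0139) and -1.08 in control-siRNA cells (SE 0.147, adjusted p = 0.000848). The PHGDH-siRNA call of KLK13 was lost in 2 of 21 alternatives, with adjusted p up to 0.111, among them leaving out PHGDH-siRNA replicate 3 (0.0586).

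KLK8 was at 7.78, 6.78 and 7.83 FPKM in PHGDH-siRNA+Mix, against 10.2, 11.7 and 10.4 FPKM in PHGDH-siRNA, and at 6.80, 6.91 and 6.48 FPKM in Control-siRNA+Mix, against 10.2, 12.8 and 12.2 FPKM in Control-siRNA. It fell by 0.47 in PHGDH-siRNA cells (SE 0.112, adjusted p = 0.0245) and by 0.72 in control-siRNA cells (SE 0.112, adjusted p = 0.00218). The PHGDH-siRNA call was lost in 8 of 21 alternatives, with adjusted p up to 0.149, among them leaving out the replicate 2 pair (0.0594) or any 1 of 5 libraries: PHGDH-siRNA replicates 1, 2 and 3 (0.0504, 0.0504 and 0.0665) and PHGDH-siRNA+Mix replicates 2 and 3 (0.0521 and 0.0567). KLK8 shares 40.1% of its exon bases with AC011473.4 on the same strand, so its reads are uncertain.

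KLK5, the most abundant gene of the list, was lower with Mix in control-siRNA cells, at 56.1, 54.6 and 44.4 FPKM with Mix, against 117, 164 and 158 FPKM without. KLK6 was at 4.17, 0.875 and 4.73 FPKM in PHGDH-siRNA+Mix, against 13.0, 2.22 and 12.8 FPKM in PHGDH-siRNA, and at 4.24, 4.07 and 3.51 FPKM in Control-siRNA+Mix, against 13.6, 19.4 and 17.9 FPKM in Control-siRNA. The control-siRNA groups did not overlap for either gene, and replicate 2 of PHGDH-siRNA lay within the range of PHGDH-siRNA+Mix. With all 12 libraries neither was called. In PHGDH-siRNA cells the log2 fold change was -1.19 for KLK5 (SE 0.658, adjusted p = 0.335) and -1.16 for KLK6 (SE 0.544, adjusted p = 0.242). In control-siRNA cells the log2 fold change was -1.47 for KLK5 (SE 0.658, adjusted p = 0.217) and -1.85 for KLK6 (SE 0.544, adjusted p = 0.0579).

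When the replicate 2 pair was left out, KLK5 fell with Mix by 1.29 in PHGDH-siRNA cells (SE 0.180, adjusted p = 0.00173) and by 1.47 in control-siRNA cells (SE 0.147, adjusted p = 0.000187). KLK6 then fell by 1.36 (SE 0.157, adjusted p = 0.000655) and by 1.85 (SE 0.128, adjusted p = 2.28e-05). With 12 libraries and the block, KLK5 fell by 1.19 (SE 0.150, adjusted p = 0.000703) and KLK6 by 1.16 (SE 0.154, adjusted p = 0.000921) in PHGDH-siRNA cells. Both overlap exons of AC011483.2 on the opposite strand, over 12.2% of the bases of KLK5 and 20.3% of those of KLK6, and the sources used here do not give the strand setting of the counting.

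KLK10 was at 4.74, 12.5 and 4.39 FPKM in PHGDH-siRNA+Mix, against 9.30, 17.0 and 7.77 FPKM in PHGDH-siRNA, and at 9.37, 9.49 and 10.4 FPKM in Control-siRNA+Mix, against 13.6, 20.7 and 18.3 FPKM in Control-siRNA. KLK7, which cuts corneodesmosomes together with KLK5, was at 9.66, 3.42 and 8.40 FPKM in PHGDH-siRNA+Mix, against 11.1, 4.90 and 10.3 FPKM in PHGDH-siRNA, and at 9.15, 9.63 and 7.88 FPKM in Control-siRNA+Mix, against 12.6, 12.3 and 11.7 FPKM in Control-siRNA. KLK11 was at 0.645, 1.51 and 0.868 FPKM in PHGDH-siRNA+Mix, against 0.543, 2.34 and 0.672 FPKM in PHGDH-siRNA, and at 0.682, 0.734 and 0.641 FPKM in Control-siRNA+Mix, against 0.980, 1.76 and 1.60 FPKM in Control-siRNA. For these 3 genes the control-siRNA groups were lower with Mix without overlap, the PHGDH-siRNA groups overlapped, and no test passed with 12 libraries. In PHGDH-siRNA cells the log2 fold changes were -0.65 for KLK10 (SE 0.348, adjusted p = 0.311), -0.29 for KLK7 (SE 0.328, adjusted p = 0.673) and -0.05 for KLK11 (SE 0.272, adjusted p = 0.938). In control-siRNA cells they were -0.77 for KLK10 (SE 0.348, adjusted p = 0.226), -0.42 for KLK7 (SE 0.328, adjusted p = 0.536) and -0.52 for KLK11 (SE 0.272, adjusted p = 0.304). With the replicate 2 pair left out, KLK10 was called lower in PHGDH-siRNA cells (adjusted p = 0.0182), and KLK10, KLK7 and KLK11 in control-siRNA cells (adjusted p = 0.00566, 0.0132 and 0.0223). With the block, KLK10 (adjusted p = 0.0110) and KLK7 (adjusted p = 0.0431) were called lower in PHGDH-siRNA cells, and KLK11 was not (adjusted p = 0.829).

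SPINK5, the inhibitor of KLK5 and KLK7, was at 0.247 to 1.85 FPKM in PHGDH-siRNA+Mix, against 0.620 to 2.53 FPKM in PHGDH-siRNA, and at 0.288 to 0.422 FPKM in Control-siRNA+Mix, against 0.728 to 0.848 FPKM in Control-siRNA, and was not called with Mix with all 12 libraries. Without the replicate 2 pair it was called lower in control-siRNA cells (log2 fold change -0.39, SE 0.110, adjusted p = 0.0344) and not in PHGDH-siRNA cells (-0.28, SE 0.134, adjusted p = 0.211). In PHGDH-siRNA cells it was called with the block (-0.29, SE 0.0909, adjusted p = 0.0471).

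Of the other genes EMP1, a tetraspan membrane protein of epithelia, was at 39.8, 35.1 and 37.3 FPKM in PHGDH-siRNA+Mix, against 60.2, 54.5 and 66.6 FPKM in PHGDH-siRNA. In control-siRNA cells it was at 21.7, 20.8 and 23.0 FPKM with Mix, against 45.9, 47.1 and 46.1 FPKM without. The 4 groups did not overlap with each other, and EMP1 was not among the genes set apart by replicate 2. EMP1 fell with Mix by 0.68 in PHGDH-siRNA cells (SE 0.108, adjusted p = 0.00293) and by 1.05 in control-siRNA cells (SE 0.108, adjusted p = 0.000114). The call in PHGDH-siRNA cells was lost in 1 of 21 alternatives (adjusted p = 0.0771).

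The galectin-7 genes LGALS7B and LGALS7 encode the same keratinocyte lectin, and their transcripts were identical at 235 of 236 positions of the best matching stretch, so the split of reads between them is uncertain. Their summed level was 1.50, 86.6 and 1.73 FPKM in PHGDH-siRNA+Mix, against 9.97, 88.1 and 8.52 FPKM in PHGDH-siRNA, and 2.28, 2.66 and 2.07 FPKM in Control-siRNA+Mix, against 14.3, 15.1 and 13.2 FPKM in Control-siRNA. Apart from replicate 2 of the PHGDH-siRNA groups, every library with Mix lay below every library without it. LGALS7B was not called with 12 libraries in PHGDH-siRNA cells (log2 fold change -1.21, SE 1.24, adjusted p = 0.638) or in control-siRNA cells (-2.31, SE 1.24, adjusted p = 0.320). Without the replicate 2 pair it fell by 1.81 (SE 0.205, adjusted p = 0.000594) and by 2.31 (SE 0.168, adjusted p = 3.09e-05). With the block it was called lower in PHGDH-siRNA cells (SE 0.327, adjusted p = 0.0276), and so was LGALS7 (log2 fold change -1.05, SE 0.231, adjusted p = 0.0112).

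To set these genes in context, 64 further cornification genes and 18 basal keratinocyte genes were counted. Of the 64, 32 were expressed enough to test, and with Mix 4 were higher (TGM2, ALOXE3, C1orf68 and PRDM1) and 5 lower (BLMH, CTSV, KRT9, KRT80 and KRT13) in each siRNA arm, with median log2 fold changes of -0.03 in PHGDH-siRNA cells and 0.03 in control-siRNA cells. Of all genes tested, 5.22% were higher and 3.64% lower in PHGDH-siRNA cells and 5.62% and 3.92% in control-siRNA cells. C1orf68 and PRDM1 had passed the filter only through the groups with Mix, where they were high. These counts therefore describe the list and give no support to a difference between it and other genes. TGM2, a transglutaminase found in many tissues, averaged 13.8 FPKM in PHGDH-siRNA+Mix against 1.30 FPKM in PHGDH-siRNA, and 7.78 FPKM in Control-siRNA+Mix against 0.385 FPKM in Control-siRNA (adjusted p = 0.00484 and 0.00303). KRT13, a keratin of internal stratified epithelia, averaged 8.89 FPKM in PHGDH-siRNA+Mix against 100.9 FPKM in PHGDH-siRNA, and 7.38 FPKM in Control-siRNA+Mix against 107.5 FPKM in Control-siRNA (adjusted p = 0.0283 and 0.0108).

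Of the 18 basal genes, all expressed enough to test, 10 were higher with Mix in PHGDH-siRNA cells and 9 in control-siRNA cells, and 0 were lower, against the same shares of all genes tested, with median log2 fold changes of 0.84 and 0.93. PDPN, called in both arms, had passed the filter only through the groups with Mix, so these counts too are a description of the list. The basal genes called were mostly integrin and laminin genes. LAMB3, a laminin-332 chain, averaged 753.5 FPKM in PHGDH-siRNA+Mix against 191 FPKM in PHGDH-siRNA, and 454 FPKM in Control-siRNA+Mix against 113 FPKM in Control-siRNA (adjusted p = 0.00184 and 0.00174). ITGA2, a collagen-binding integrin chain, averaged 61.0 against 18.7 FPKM in PHGDH-siRNA cells and 38.6 against 15.1 FPKM in control-siRNA cells, with Mix named first (adjusted p = 0.00224 and 0.00753). The basal list did not rise as a whole: the means of KRT5, KRT15 and BCAM were lower with Mix in both arms, without a call. KRT5 averaged 452 FPKM in PHGDH-siRNA+Mix against 708 FPKM in PHGDH-siRNA, and 315 FPKM in Control-siRNA+Mix against 474 FPKM in Control-siRNA.

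Few of these genes passed the test between PHGDH siRNA and control siRNA. Without Mix, PADI3 was the 1 gene of 29 that was called, lower, against 0.0412% of all genes tested (0.0137% higher and 0.0274% lower, 6 genes in all). With Mix, 0 of 29 were called by limma and 1, EMP1, by voom on recovered reads, against 0.0206% of all genes tested (0.0137% higher and 0.00686% lower, 3 genes in all), and 4 of the 29 had an unadjusted p below 0.05 (EMP1, LCE3D, PADI3 and LCE3E). Averaged over both Mix conditions, EMP1 was higher and PADI3 lower with PHGDH siRNA, against 0.487% of all genes tested (0.254% higher and 0.233% lower).

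For PADI3, the levels given above correspond to a mean of 2.17 ± 0.364 FPKM in PHGDH-siRNA and 6.57 ± 1.29 FPKM in Control-siRNA (SD, n = 3 each), a 3.03-fold lower mean. The log2 fold change was -1.25 (SE 0.147, limma adjusted p = 0.0295). With Mix, PADI3 averaged 0.362 ± 0.0986 FPKM in PHGDH-siRNA+Mix and 0.872 ± 0.0990 FPKM in Control-siRNA+Mix (SD, n = 3 each), which did not overlap and were not called (log2 fold change -0.46, SE 0.147, limma adjusted p = 0.646). The call without Mix was lost in 12 of 20 alternatives, 8 of which left out 1 library: Control-siRNA replicates 2 and 3 (adjusted p = 0.110 and 0.172), Control-siRNA+Mix replicates 1, 2 and 3 (0.0766, 0.0884 and 0.0707) and PHGDH-siRNA replicates 1, 2 and 3 (0.0852, 0.0796 and 0.179). Without the replicate 2 pair PADI3 was called (log2 fold change -1.15, SE 0.146, limma adjusted p = 0.0184).

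EMP1 averaged 37.4 ± 2.34 FPKM in PHGDH-siRNA+Mix and 21.8 ± 1.09 FPKM in Control-siRNA+Mix, and 60.4 ± 6.06 FPKM in PHGDH-siRNA and 46.4 ± 0.612 FPKM in Control-siRNA (SD, n = 3 each). The siRNA groups did not overlap in either Mix condition. The log2 fold change was 0.75 with Mix (SE 0.108, limma adjusted p = 0.0745) and 0.37 without (SE 0.108, limma adjusted p = 0.452), and 0.56 averaged over both (SE 0.0765, limma adjusted p = 0.0197). The averaged PADI3 change was -0.85 (SE 0.104, limma adjusted p = 0.0119). Without Control-siRNA replicate 2 or 3 or Control-siRNA+Mix replicate 1 or 2 both averaged calls were lost (adjusted p = 0.0528 to 0.0905), and without Control-siRNA+Mix replicate 3 or PHGDH-siRNA replicate 3 that of EMP1 was lost (0.0686 and 0.0627).

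Leaving out the replicate 2 pair, 6 of the 29 genes were called for the averaged siRNA comparison, against 3.55% of all genes tested (1.98% higher and 1.57% lower): EMP1 higher, and PPL, AQP3, KLK10, CRABP2 and PADI3 lower. The log2 fold changes were -1.04 for AQP3 (SE 0.133, limma adjusted p = 0.00803), -0.94 for KLK10 (SE 0.113, limma adjusted p = 0.00704), -0.72 for CRABP2 (SE 0.134, limma adjusted p = 0.0268) and -0.43 for PPL (SE 0.0732, limma adjusted p = 0.0189). These values set aside the libraries in which AQP3 and CRABP2 were highest. With all 12 libraries the averaged values of AQP3 and CRABP2 were 0.16 and 0.51, of the opposite sign and not called. TGM1 and LGALS7B turned likewise, at -0.37 and -0.29 without the pair, against 0.50 and 1.11 with it, and were called in neither. Without the pair, AQP3, KLK10 and PADI3 were called lower without Mix, against 0.707% of all genes tested (0.364% higher and 0.343% lower), and EMP1 higher with Mix, against 0.309% (0.192% higher and 0.117% lower).

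**Figure D4:**
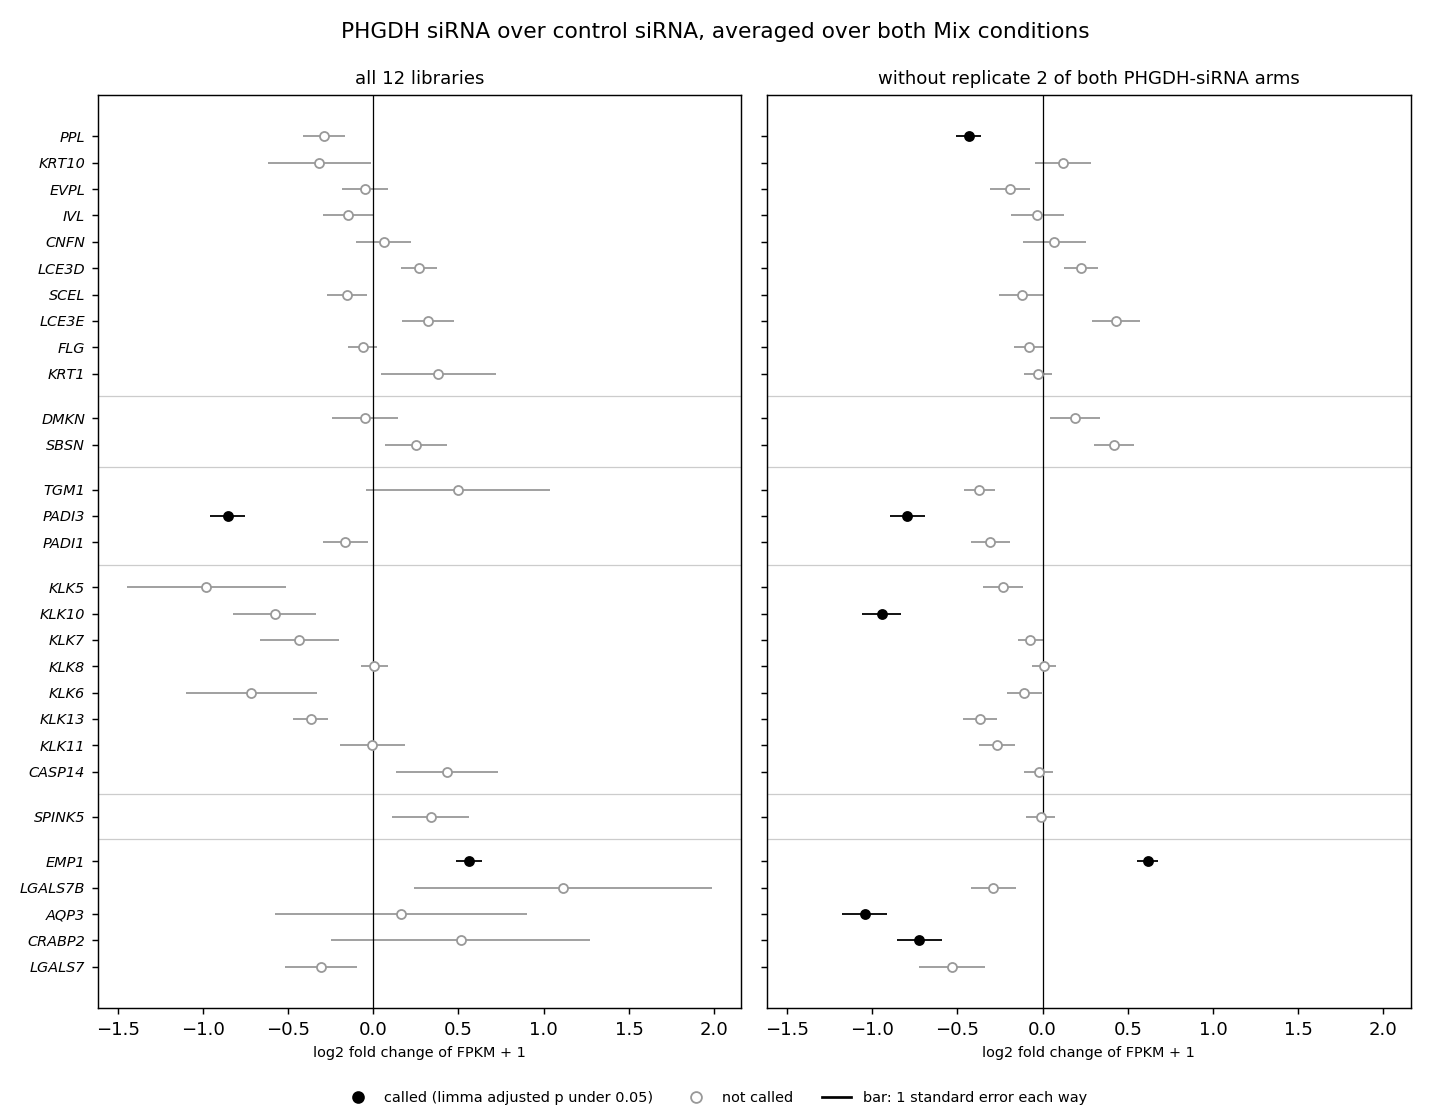
Log2 fold change of FPKM + 1 for PHGDH siRNA over control siRNA, averaged over both Mix conditions, for the 29 expressed genes in the same 6 blocks, with all 12 libraries at left and without replicate 2 of both PHGDH-siRNA groups at right (filled points passed the limma test, bars are 1 standard error each way). EMP1 and PADI3 are filled in both panels, and PPL, KLK10, AQP3 and CRABP2 at right alone, with AQP3 at 0.16 at left and -1.04 at right.

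The siRNA groups did not overlap for 6 of the 29 genes without Mix, 1 higher and 5 lower, against 10.2% of all genes tested (4.89% higher and 5.30% lower), and for 3 with Mix, 2 higher and 1 lower, against 14.3% (7.01% higher and 7.33% lower). The structural genes IVL, SCEL, FLG, PPL, EVPL, KRT10 and CNFN were among those not called between siRNA groups with 12 libraries in any of the 3 comparisons. For IVL, PHGDH-siRNA+Mix averaged 1.19 ± 0.427 FPKM and Control-siRNA+Mix 1.15 ± 0.262 FPKM, and PHGDH-siRNA averaged 3.20 ± 0.417 FPKM and Control-siRNA 4.31 ± 1.44 FPKM (SD, n = 3 each). None of the 64 further cornification genes or the 18 basal genes was called by limma in these comparisons, the interaction included.

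Whether the Mix difference itself depended on PHGDH was tested as the interaction, the Mix effect in PHGDH-siRNA cells minus that in control-siRNA cells. It called 0 of the 29 genes and 0 of all genes tested (0%), and 0 with voom on recovered reads. An unadjusted p below 0.05 was found for 3 of the 29 (PADI3, LCE3D and EMP1) and for 250 of the 14577 genes. The estimates were 0.79 for PADI3 (SE 0.208, limma adjusted p = 1), 0.70 for LCE3D (SE 0.207, limma adjusted p = 1) and 0.38 for EMP1 (SE 0.153, limma adjusted p = 1), each 1 when rounded. FLG, PADI1, SBSN and LCE3E, which passed the Mix test in 1 arm alone without the block, are therefore not shown to differ between the arms.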

How the data were processed

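RNA from 12 libraries of HaCaT cells was taken up in RNAiso Plus and made into libraries with a NEBNext Ultra RNA kit, per the labels' protocols. The submitters' processing notes name HISAT2 2.0.5, featureCounts 1.5.0-p3, CASAVA and the hg38 build, with no roles or settings. The deposited table holds FPKM values made by the authors, with 1 column per library. Up to 200 reads, 100% of the values were whole multiples of 1 read within 0.05, which gave the reads per library. Counting error limits genes with few reads, and duplicates can only enlarge it.

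The log2(FPKM + 1) values were fitted in 1 limma model (3.58.1 in R 4.3.3, with trend and robust settings) of the 4 group means, over the 14577 genes that reached a mean of 0.5 FPKM in a group. Two-sided p-values were Benjamini-Hochberg adjusted over these genes, with 0.05 as the threshold, for 6 comparisons, and the code was tested on simulated data. With 3 libraries in each group, no exact permutation p can go below 0.1. The genes and lists were chosen with earlier results of these data known. Named with full values were genes called in at least 1 comparison and the PADI, TGM and KLK genes tested. The alternatives were a pseudocount of 0.1, no filter, upper quartile or TPM scaling, voom on recovered reads, a replicate block, the compared groups alone, and leaving out 1 library or replicate 2 of both PHGDH-siRNA groups. After seeing the data, a replicate block in the PHGDH-siRNA arm alone was added. The replicate 2 pair was chosen for leaving out because it stood apart in these data. The labels give each group the same replicate numbers and no shared batch, and pairing was taken from the correlation of deviations from the group means of same-numbered libraries: all 3 pairs exceeded 0.1 for PHGDH-siRNA+Mix and PHGDH-siRNA (0.459 to 0.775), and for no other pair of groups. Within a group of 3, a library that stands apart also moves the deviations of the other 2. Promoters came from RefSeq on GRCh38.p14 and gene positions from the deposited table.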

Additional observations from a re-analysis of the deposited data

How the results depend on the processing

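No alternative reversed the direction of a gene called with 12 libraries. Among genes not called, leaving out replicate 2 of both PHGDH-siRNA groups turned the averaged siRNA value of 9 of 29, among them AQP3 and CRABP2, which were called without the pair. Of 436 alternative values for the called genes, 385 kept their side of the threshold and 51 lost it. Leaving out replicate 2 of both PHGDH-siRNA groups gave 2199 genes, 16 of them of the cornification list, for Mix in PHGDH-siRNA cells and 3063 and 21 for Mix in control-siRNA cells. For PHGDH siRNA it gave 103 and 3 without Mix, 45 and 1 with Mix, and 517 and 6 averaged. With only the compared groups in the model the counts were 238 and 3 for Mix in PHGDH-siRNA cells, 2642 and 21 in control-siRNA cells, and 0 and 0 for PHGDH siRNA without Mix, with 0 genes with Mix. With no filter, Mix in PHGDH-siRNA cells gave 761 genes, and PHGDH siRNA gave 1 gene and 0 of the list without Mix, 5 genes with Mix, 14 averaged and 5 for the interaction. A pseudocount of 0.1 gave 0 of the list for PHGDH siRNA without Mix and 1 gene with Mix. For PHGDH siRNA with Mix, upper quartile scaling called 1 of the list and voom 5 genes and 1 of the list, EMP1 in both.

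The replicate block in the PHGDH-siRNA arm alone, added after seeing the data, gave 3284 genes and 20 of the list for Mix in PHGDH-siRNA cells and 3298 and 21 in control-siRNA cells, and it removed no call for Mix in a gene of the list. A replicate block over all 4 groups, where the other pairs of groups share only a number, gave 0 genes and 0 of the list for PHGDH siRNA without Mix, 0 genes with Mix and 39 averaged, against 6, 3 and 71 without the block.

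Leaving out 1 library at a time gave 674 to 1652 genes and 5 to 13 of the list for Mix in PHGDH-siRNA cells, lowest without PHGDH-siRNA replicate 3. It gave 651 to 1782 genes and 8 to 13 of the list in control-siRNA cells, lowest without Control-siRNA+Mix replicate 3. For PHGDH siRNA the ranges were 0 to 16 genes and 0 to 1 of the list without Mix, 0 to 6 and 0 to 1 with Mix, 3 to 89 and 0 to 2 averaged, and 0 to 0 for the interaction. LCE3D and LCE3E rest on 123 and 73 reads over all 12 libraries. The cause of these shifts was not tested.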
